A study of Homo sapiens with 9 samples.

Results

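Non-coding transcripts made up 175 of the 1796 transcripts on the lists of RNAs edited by a GPATCH8 or a SUGP1 fusion in 293T cells. They were chosen by the gene type in the authors' tables, taking every row whose type was not protein_coding, and they belong to 165 of the 1513 listed genes. The GPATCH8-ADAR list held 68 of them among 612 transcripts and the ADAR-SUGP1 list 124 among 1340. The choice used the annotation alone and not the number of sites.

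TRIBE-seq joins an RNA-binding protein to a hyperactive fly deaminase domain (ADAR) that edits adenosines to inosines close to where the protein touches RNA; sequencing shows these as A-to-G changes. The 293T line was derived from human embryonic kidney cells and expresses the SV40 large T antigen, and the sample labels give it as SF3B1 wild type. Cells were transfected with a plasmid for GPATCH8-ADAR (2 libraries, run 1), for ADAR-SUGP1 (2 libraries, run 2) or for the respective non-targeting control, an MCP and ADAR fusion (2 libraries in each run), and 1 library of untransfected cells was sequenced in run 2. Living GFP-positive cells were sorted 24 h after transfection, so each fusion was expressed from a plasmid beside the cell's own protein; the promoter of the plasmids is not given in the sources used here. Each table pools the 2 libraries of its fusion, as sites found in both replicates after removal of endogenous and control editing. No replicate value, editing level, read depth or position was given, so every count below is a single value. The tables hold sites, not expression, and the identity of the cells could not be checked against marker genes.

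GPATCH8 and SUGP1 are G-patch proteins, a class that activates RNA helicases, and SUGP1 acts with SF3B1 at the branchpoint, where introns are recognised before they are spliced. Long non-coding RNAs are for the most part transcribed by RNA polymerase II and spliced like messenger RNAs, so their introns pass through the same machinery. Antisense transcripts run against a gene on the other strand, long intergenic RNAs (lincRNAs) lie between genes, pseudogenes are copies of genes that have lost their coding function, and the type processed_transcript covers RNAs without an open reading frame that fit none of these. Not every member fits its type. GABPB1-AS1, typed processed_transcript, overlaps GABPB1 on the opposite strand, and RSBN1L-AS1, typed lincRNA, overlaps RSBN1L. Several non-coding RNAs carry microRNAs or small nucleolar RNAs (snoRNAs), which guide the modification of other RNAs, in their introns.

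Selected mature microRNAs of a member, or from within the listed hosts C1orf132 and DLEU2, are shown here to identify small RNAs these genes carry. Other mature forms from the same microRNA genes, and those of MIR3613, MIR3199-1 and MIR3199-2, are left out. Of 3 members typed as miRNA, all on the ADAR-SUGP1 list, MIR3671 was matched in RefSeq (GRCh38.p14), where it overlaps JAK1 on the same strand. RefSeq also places MIR29B2 and MIR29C within C1orf132 (current symbol MIR29B2CHG) and MIR15A, MIR16-1 and MIR3613 within DLEU2, on the same strand as their hosts. Within TTC28-AS1, which had 2 intronic sites with ADAR-SUGP1, RefSeq places MIR3199-2 on the same strand and MIR3199-1 on the opposite one. Mature sequences are written 5′ to 3′ with the seed, bases 2 to 8, in capitals.
hsa-miR-3671: aUCAAAUAaggacuagucugca
hsa-miR-29b-3p: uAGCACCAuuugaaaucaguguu
hsa-miR-29c-3p: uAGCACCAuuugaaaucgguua
hsa-miR-15a-5p: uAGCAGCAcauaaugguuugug
hsa-miR-16-5p: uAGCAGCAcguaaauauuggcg
The miR-29 pair share the seed AGCACCA, and miR-15a and miR-16 share AGCAGCA. DLEU2, known from a region lost in chronic lymphocytic leukaemia, had 1 intronic site with GPATCH8-ADAR and was not on the ADAR-SUGP1 list. C1orf132 had 1 intronic site with ADAR-SUGP1 and was not on the other list. MIR3671 had 1 promoter site with ADAR-SUGP1, and JAK1 was on neither list. The transcript count of MIR3671 was 0, but no column counts the exons of a non-coding transcript. The other miRNA rows, AP000765.1 and AC092117.1, had 2 promoter sites and no counted site. Whether a site lay in or near a microRNA hairpin cannot be told without positions.

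By type, antisense transcripts were the most frequent with either fusion, 28 with GPATCH8-ADAR and 50 with ADAR-SUGP1. The lincRNAs numbered 16 and 19, processed transcripts 10 and 25, pseudogenes 11 and 24, and sense-overlapping transcripts 2 and 2. Of the rare types, 1 misc_RNA (RN7SL529P, a copy of the signal recognition particle RNA) stood on the GPATCH8-ADAR list, and 3 miRNAs and 1 polymorphic pseudogene (C6orf183) on the ADAR-SUGP1 list. The share of each type among annotated or expressed RNAs was not taken into account, so these counts show no preference for a type. Non-coding transcripts were 11.1% of the GPATCH8-ADAR list (95% exact binomial interval 8.73 to 13.9) and 9.25% of the ADAR-SUGP1 list (7.76 to 10.9). The difference, ADAR-SUGP1 minus GPATCH8-ADAR, was -1.86 percentage points with a 95% interval (Newcombe) of -4.95 to 0.946, and Fisher's exact test over transcripts (two-sided) did not pass the threshold (p = 0.219, 0.438 after Benjamini-Hochberg adjustment over 2 comparisons). Fusion and sequencing run cannot be told apart, and this p covers the spread over transcripts, not between libraries. The lists also share transcripts, 17 of them non-coding, and some genes have several rows. Every Fisher's exact test and Newcombe interval given here treats the lists as independent, which they are not.

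**Figure D1:**
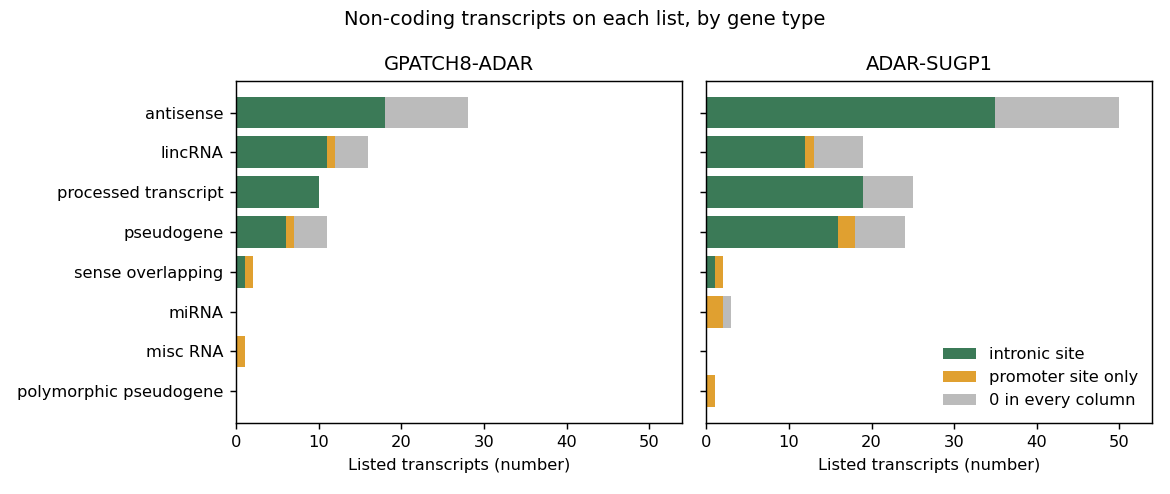
Number of non-coding transcripts on each fusion's list (horizontal axis) by gene type, split into those with an intronic site, those with a promoter site alone and those at 0 in every column. Antisense transcripts form the longest bar in both panels, 28 and 50, and no antisense or processed transcript shows a promoter site.

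Every site counted inside a non-coding transcript was intronic: 65 with GPATCH8-ADAR and 106 with ADAR-SUGP1, which were 10.3% and 11.3% of all intronic sites on those lists. The tables have columns for the untranslated regions, coding sequence, stop codon, intron, promoter and whole transcript. The last equals the sum of untranslated regions, coding sequence and intron in every row, so no column counts the exons of a non-coding transcript. With GPATCH8-ADAR, 46 of the 68 non-coding transcripts had a site in the transcript body (67.6%), where 88.6% of all listed transcripts had one. With ADAR-SUGP1 these were 83 of 124 (66.9%) against 80.4%. The transcript body leaves out the stop-codon column, and 11 and 87 protein-coding transcripts had a site there alone. Between the fusions, the share of non-coding transcripts without such a site was 32.4% (22 of 68) and 33.1% (41 of 124), a difference of 0.712 points (95% Newcombe interval -13.4 to 13.9, Fisher's exact test, two-sided, p = 1).

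RP11-440L14.1, an antisense transcript (ENST00000503571.1), carried the most sites of any non-coding gene, 6 with ADAR-SUGP1 and 1 with GPATCH8-ADAR. The sense-overlapping transcript RP4-785G19.5 came next with 5 sites with GPATCH8-ADAR (ENST00000512005.1), and the pseudogene AC093838.4 had 4 (ENST00000415574.2). Both were absent from the ADAR-SUGP1 list. SPPL2B had 4 intronic sites with ADAR-SUGP1 over 4 listed transcripts, with 2, 1, 1 and 0 sites, and was not listed for GPATCH8-ADAR. Whether 1 site was counted for several of these transcripts cannot be told without positions. SPPL2B encodes an intramembrane protease and is protein-coding in RefSeq, but the deposited table types it as processed_transcript. Of these 4 genes, RP11-440L14.1 alone was on both lists.

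With GPATCH8-ADAR, RP11-14N7.2 (lincRNA) and RP11-146F11.5 (antisense) had 3 intronic sites each. A further 8 genes had 2: the antisense transcripts RP1-117O3.2, AC133528.2, RP11-977G19.11 and AC016629.8, the processed transcripts AC013394.2 and RP11-77K12.8, the lincRNA RP11-452L6.1 and CRHR1-IT1. In all, 12 of the 67 non-coding genes of this list had 2 or more sites, 34 had 1 and 21 had none in the transcript body.

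With ADAR-SUGP1, the antisense transcripts RP11-169K16.9 and RP5-1142A6.2 and the processed transcript CTD-2228K2.7 had 3 sites each. There were 11 genes with 2 sites. Among them were HNRNPU-AS1, named for the gene of the nuclear RNA-binding protein hnRNP U, TTC28-AS1, and RAB30-AS1 (current symbol RAB30-DT), which is transcribed away from the gene of the small GTPase RAB30. The others were ZNF833P, AC034193.5, AL773604.8, RP5-1132H15.1, RP11-31F15.1, RP11-14N7.2, CTD-2037K23.2 and AP003900.6. Of the 115 non-coding genes of this list, 16 had 2 or more sites, 65 had 1 and 34 had none in the transcript body. Of the 27 genes with 2 or more sites with either fusion, only RP11-14N7.2 had 2 or more with both.

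**Figure D2:**
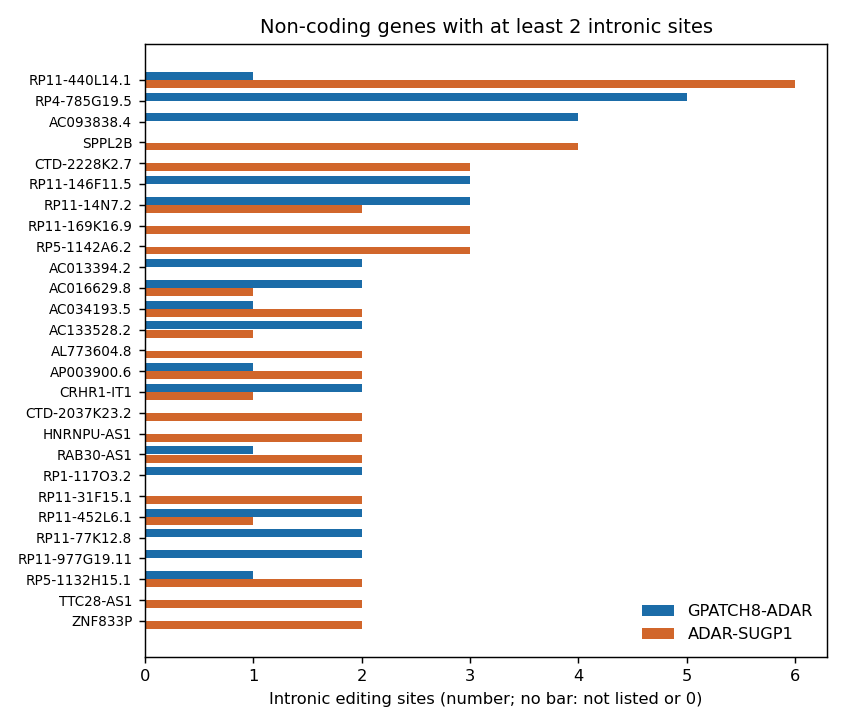
Intronic editing sites (horizontal axis, number) of the 27 non-coding genes with at least 2 sites with either fusion, blue for GPATCH8-ADAR and orange for ADAR-SUGP1; no bar means that the gene was not listed or had 0. RP11-440L14.1 reaches 6 with ADAR-SUGP1, RP4-785G19.5 reaches 5 with GPATCH8-ADAR, and RP11-14N7.2 is at 3 and 2.

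The number of sites was then taken over transcripts with an intronic site. With GPATCH8-ADAR, the 46 non-coding transcripts with an intronic site had 1.41 ± 0.858 sites each (SD over transcripts) and the 373 protein-coding ones 1.51 ± 0.966. With ADAR-SUGP1 the values were 1.28 ± 0.721 (n = 83 transcripts) and 1.30 ± 0.677 (n = 643 transcripts). These means were not tested against each other. At least 2 intronic sites were present in 26.1% and 31.6% of these transcripts with GPATCH8-ADAR and in 19.3% and 20.5% with ADAR-SUGP1, non-coding given first. Counting rows without a site as 0, the means were 0.956 ± 0.969 (n = 68 transcripts) and 0.855 ± 0.843 (n = 124 transcripts) for non-coding transcripts and 1.35 ± 1.01 and 1.03 ± 0.751 for protein-coding ones, whose counts also take in exonic sites. The median was 1 in all 4 sets.

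**Figure D3:**
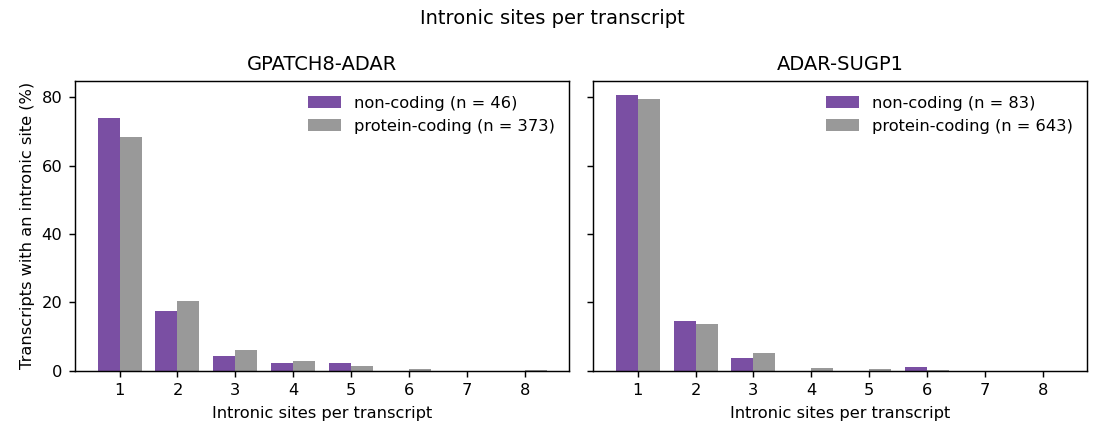
Share of transcripts (vertical axis, percent of those with at least 1 intronic site) by their number of intronic sites, non-coding in purple and protein-coding in grey, for each fusion. A single site is the most frequent count in every set, 73.9% and 68.4% with GPATCH8-ADAR and 80.7% and 79.5% with ADAR-SUGP1.

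Both fusions listed 17 non-coding genes, 25.4% of the 67 with GPATCH8-ADAR and 14.8% of the 115 with ADAR-SUGP1. Over all listed genes, 28.7% and 14.6% were shared, and over protein-coding genes 29.1% and 14.6%. All 17 had the same transcript identifier on both lists. They were 6 antisense transcripts, 4 lincRNAs, 5 pseudogenes and 2 processed transcripts. In 14 of them an intronic site was counted with each fusion: GPATCH8-ADAR gave the larger number in 5 genes, ADAR-SUGP1 in 5, and the numbers were equal in 4.

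RP11-14N7.2 had 3 GPATCH8-ADAR sites and 2 ADAR-SUGP1 sites. AC016629.8, AC133528.2, CRHR1-IT1 and RP11-452L6.1 had 2 with GPATCH8-ADAR and 1 with ADAR-SUGP1. AC034193.5, AP003900.6, RAB30-AS1 and RP5-1132H15.1 had the reverse, 1 and 2. These differences are of a single site, and with 1 value per fusion they could not be tested. RP11-514P8.8, RP11-66N24.3, RRP7B and STAG3L2 had 1 site with each. RRP7B (current symbol RRP7BP) and STAG3L2 are named for the coding genes RRP7A, a ribosome biogenesis factor, and STAG3, a meiotic cohesin subunit, neither of which was on a list, and reads of near-identical copies may be assigned to either. RP11-77K12.8 had 2 GPATCH8-ADAR sites and 0 ADAR-SUGP1 sites, RP1-283E3.4 had 0 and 1, and AC007383.4 was listed at 0 for both.

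**Figure D4:**
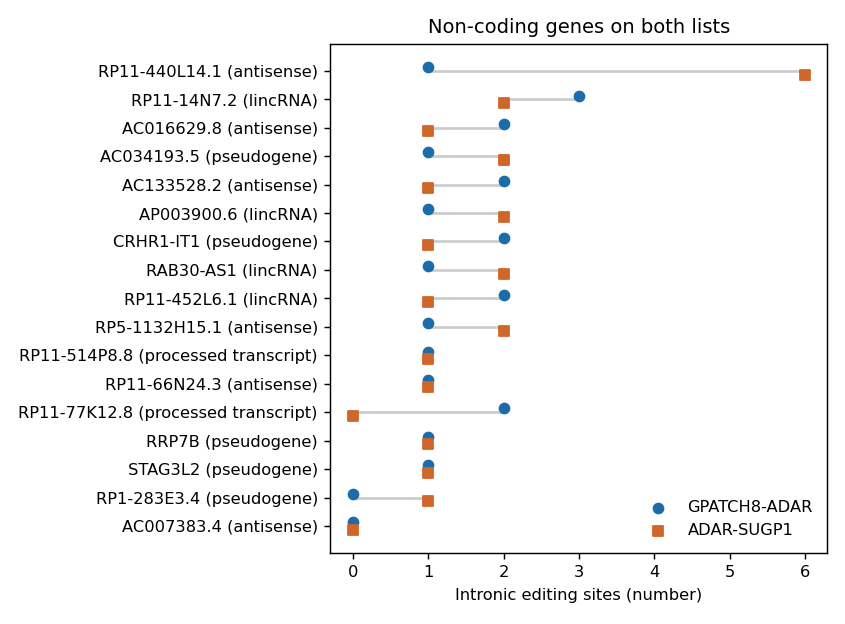
Intronic editing sites (horizontal axis, number) of the 17 non-coding genes on both lists, with the type in brackets; circles stand for GPATCH8-ADAR and squares for ADAR-SUGP1, set slightly apart for legibility. Apart from RP11-440L14.1 (1 and 6) and RP11-77K12.8 (2 and 0), no gene differs by more than 1 site.

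The fixed list of snoRNA hosts and similar RNAs had 4 non-coding members on the ADAR-SUGP1 list and 1 on the GPATCH8-ADAR list. These were 3.48% and 1.49% of the non-coding genes of those lists, counts too small to compare. GAS5, a growth-arrest RNA, SNHG1, SNHG5 and SNHG14 each had 1 intronic site with ADAR-SUGP1 and were not listed for GPATCH8-ADAR. RefSeq places 11 snoRNA genes within GAS5, 9 within SNHG1, 2 within SNHG5 and 84 within SNHG14, the imprinted transcript that runs through the Prader-Willi region and against UBE3A. TAF1D, a coding snoRNA host, also had 1 intronic site with ADAR-SUGP1. The member with GPATCH8-ADAR was DLEU2, counted there as a host of other small RNAs. Of other named long RNAs, FENDRR, known from heart and body wall development, and LINC00680 had 1 intronic site with ADAR-SUGP1. Neither list held the nuclear RNAs NEAT1, MALAT1 and RN7SK, nor TUG1, KCNQ1OT1, OIP5-AS1, RMRP or RPPH1. Since no column counts the exons of such RNAs, and expression is not given, their absence does not show a lack of editing.

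Antisense, divergent or overlapping RNAs with a symbol taken from a neighbouring gene came to 5 on the GPATCH8-ADAR list and 15 on the ADAR-SUGP1 list. These were 7.46% and 13.0% of the non-coding genes of those lists, a difference that was not tested. The former, all with an intronic site, were CRHR1-IT1, which is on the same strand as CRHR1, with 2 and PCBP1-AS1, RAB30-AS1, SPAG5-AS1 and UGDH-AS1 with 1 each. With ADAR-SUGP1, HNRNPU-AS1, RAB30-AS1 and TTC28-AS1 had 2 sites. CRHR1-IT1 had 1, and so did DICER1-AS1, named for the microRNA-processing enzyme DICER1, DNAJC9-AS1, GABPB1-AS1, LMCD1-AS1, RSBN1L-AS1 (current symbol APTR), and HOXA-AS2 and HOXA-AS3 of the HOXA cluster. NDUFA6-AS1, PAXIP1-AS1, SBF2-AS1 and TTN-AS1 were listed at 0.

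Whether a coding partner was also listed could be asked for a minority of the members. Partners were taken from the symbol or from overlap of the genes in RefSeq, which could be done only for named genes: 45 of the 165 names matched (27.3%), and of the 120 that did not, 118 were clone-based names such as RP11-440L14.1. Of the 69 members typed as antisense, 10 matched, so the partner counts leave out most of that type. No member shared its gene name with a protein-coding row. With GPATCH8-ADAR, 0 of 9 members with a partner had it on that list. With ADAR-SUGP1 it was 5 of 22, among them HNRNPU-AS1, whose name is a RefSeq synonym of its partner HNRNPU. For scale, the lists held 2.42% and 4.83% of the 20056 protein-coding genes of RefSeq, expressed in these cells or not. These shares are per coding gene, while a member counted if any of its partners was listed, and some had several. The measures are therefore unlike, and no excess was tested. SBF2-AS1 was listed at 0 while SBF2, on the opposite strand, had 1 intronic site. TTN-AS1 was listed at 0 while TTN, the giant muscle protein gene, had 1 coding site. PAXIP1-AS1 (current symbol PAXIP1-DT) was at 0 while PAXIP1, a DNA damage response gene, had 1 promoter site and none in its body. In these 3 pairs the counted site was thus in the coding gene's row.

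In the other pairs the rows of both the non-coding member and the coding gene held a count. HNRNPU-AS1 had 2 intronic sites, and HNRNPU had 2 at the stop codon and none in its body. HNRNPU-AS1 is also a synonym of HNRNPU in RefSeq, so that no overlap or strand was taken for it. GAS5 had 1 intronic site, and ZBTB37, which overlaps it on the opposite strand, had 1 in its 3′ UTR. Across lists, GUSBP11 had 1 intronic site with GPATCH8-ADAR and the overlapping RGL4 had 1 coding site with ADAR-SUGP1. DICER1, TTC28, GABPB1, RSBN1L, PCBP1, UGDH, SPAG5, RAB30, CRHR1, DNAJC9 and LMCD1 were on neither list although the RNAs named for them had intronic sites. Neither list held the coding genes that overlap HOXA-AS2, HOXA-AS3, SNHG14 or DLEU2, among others. RefSeq gave 33 pairs of a member and an overlapping coding gene, 18 on opposite strands, 5 on the same strand and 10 with a strand missing. The use of strand in calling sites is not given in the sources used here, so sites of an antisense RNA and of its partner cannot be told apart.

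A nearest coding gene on either side was on the same list for 2 of 14 matched members (GPATCH8-ADAR) and for 6 of 33 (ADAR-SUGP1). Of all single coding genes in RefSeq, 2.42% and 4.83% were listed. A member counted if the neighbour on either side was listed, so these shares are not like measures, and no excess was tested. The examples here are all from listed neighbours. PCF11, a transcription termination factor beside RAB30-AS1, had 1 site in its 3′ UTR with GPATCH8-ADAR and 1 intronic site with ADAR-SUGP1. CD46, a complement regulator beside C1orf132, had 2 and 1 intronic sites. SYNCRIP, an RNA-binding protein gene beside SNHG5, had 1 intronic site with ADAR-SUGP1. SLC3A2, beside SNHG1, had 4 intronic sites with GPATCH8-ADAR and was not on the ADAR-SUGP1 list that held SNHG1. Among clone-named genes, RP11-552F3.13 (antisense) was at 0 with ADAR-SUGP1 while the protein-coding RP11-552F3.12 of the same clone had 1 site. RP11-304L19.1 (sense-overlapping) had 1 site with ADAR-SUGP1 and RP11-304L19.11 (antisense) was at 0 with GPATCH8-ADAR.

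For pseudogenes, the coding gene that the symbol names was looked up. The coding genes named in CLUHP3, CROCCP2, FNBP1P1, GUSBP11, STAG3L2, SUZ12P, PPIEL, IL9RP3, AMZ2P1, SEPT7P2, ASS1P12, GSTM3P1 and DND1P1 were on neither list, which for so few genes says little beside the small share of all coding genes listed. CROCCP2, FNBP1P1 and GUSBP11 had 1 intronic site each with GPATCH8-ADAR, and CLUHP3, IL9RP3, PPIEL and SUZ12P had 1 each with ADAR-SUGP1. Of the 45 matched names, RefSeq gave 25 as long non-coding RNAs, 17 as pseudogenes, 1 as a microRNA and 2 as protein-coding (SPPL2B and the HNRNPU synonym). The tables' types differed from RefSeq for some members: ZNF833P and CROCCP2, lincRNAs in the tables, and GUSBP11, a processed transcript, are transcribed pseudogenes there, and CRHR1-IT1, a pseudogene in the tables, is a long non-coding RNA (LINC02210).

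Promoter sites were rare on both lists. With GPATCH8-ADAR, 6 of the 9 transcripts with a promoter site were non-coding (66.7%, 95% exact binomial interval 29.9 to 92.5), and they held 8 of 13 promoter sites. With ADAR-SUGP1 it was 7 of 13 transcripts (53.8%, 25.1 to 80.8) with 9 of 15 sites. Counted the other way, a promoter site was present in 8.82% of non-coding and 0.551% of protein-coding transcripts with GPATCH8-ADAR, and in 5.65% and 0.493% with ADAR-SUGP1. RN7SL529P and RP11-452L6.1 had 2 promoter sites each with GPATCH8-ADAR, and ASS1P12, RP11-226L15.5, RP11-485G4.2 and RP4-564F22.5 had 1. Of these, RP11-452L6.1 and RP4-564F22.5 also had intronic sites, 2 and 1. With ADAR-SUGP1, AP000765.1 and GSTM3P1 had 2, and AP006216.11, C6orf183, DND1P1, MIR3671 and RP11-156E6.1 had 1. None of them had a counted site in the transcript body, but sites in their exons are not counted there. No transcript had promoter sites with both fusions. The extent of the promoter window is not given, and it may reach into a neighbouring gene.

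Rows at 0 in every column were also frequent among non-coding transcripts. The GPATCH8-ADAR list held 18 among its 68 non-coding transcripts (26.5%, 95% exact binomial interval 16.5 to 38.6), and the ADAR-SUGP1 list 34 among 124 (27.4%, 19.8 to 36.2), beside 6.25% (4.37 to 8.62) and 10.5% (8.86 to 12.4) of protein-coding transcripts. Among protein-coding rows at 0, most had another transcript of the same gene with a site on that list, 27 of 34 and 106 of 128 for GPATCH8-ADAR and ADAR-SUGP1. Among non-coding rows at 0 this was so for 1 of 18 (PCBP1-AS1) and 7 of 34, the latter being further transcripts of AC016629.8, CLUHP3, CTD-2228K2.7, DICER1-AS1, RP11-396C23.2, SPPL2B and TTC28-AS1. The remaining 17 and 27 non-coding transcripts were listed without any counted site of their gene. By type, 10 of 28 and 15 of 50 antisense transcripts were at 0 in every column, 4 of 16 and 6 of 19 lincRNAs, 4 of 11 and 6 of 24 pseudogenes, and 0 of 10 and 6 of 25 processed transcripts. What placed these rows on the lists was not tested, since the tables give no exonic count for such transcripts.

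**Figure D5:**
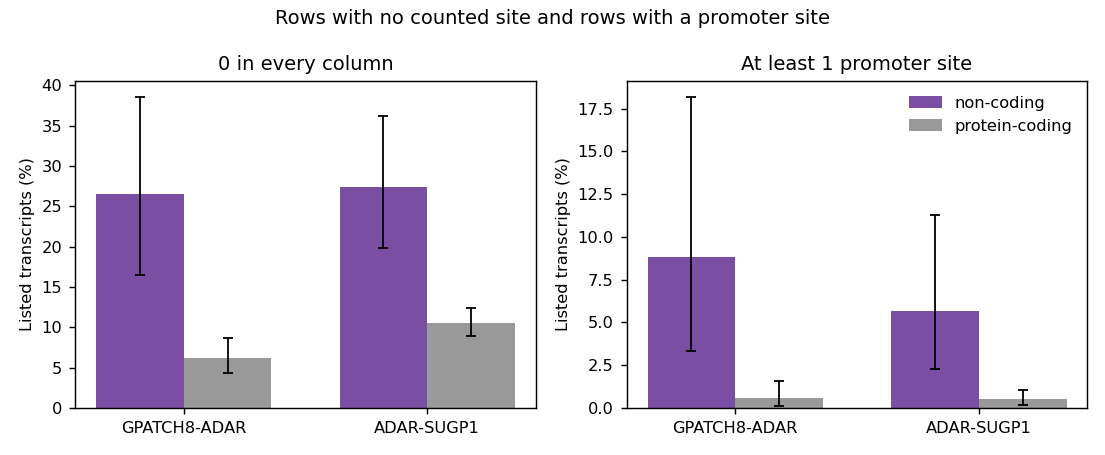
Share of listed transcripts (vertical axes, percent) at 0 in every column (left) and with at least 1 promoter site (right), non-coding in purple and protein-coding in grey, for each fusion; bars on the columns are 95% exact binomial intervals, which cover counting error only. The non-coding shares are 26.5% and 27.4% on the left and 8.82% and 5.65% on the right.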

How the data were processed

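Total RNA of sorted 293T cells went into ribo-depleted libraries read from both ends over 100 bases, per the labels' protocols. The submitters' processing notes name Trimmomatic, STAR and hg19; how sites were called, with which annotation and with what use of strand, is not given in the sources used here. For each fusion the authors deposited a table of site counts (editing sites, not reads) per transcript and region, per the file headers. The labels give 60 to 80 M reads per sample; the depth behind each site is unknown.

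Blank rows (572, in 1 table) were skipped. Shares were compared between fusions with Fisher's exact test (scipy 1.17.1). It was tested on simulated independent lists, which do not cover transcripts shared by both lists. Members were set beside other transcripts by counts and intervals alone. Names were matched by symbol or unique synonym to RefSeq (GRCh38.p14), used for names, overlaps, neighbours, hosted small RNAs and microRNA sequences. Overlaps, neighbours and hosted RNAs came from gene positions in that build. No coordinates are printed, since the counts are on hg19. Named genes were those with 2 or more sites, on both lists, of rare types, with promoter sites, in name lists or with a listed partner; neighbours, pseudogene parents and further examples were chosen after their values were seen. The members and lists were chosen with earlier results of these data known. Nothing says that replicates were separate cultures.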

Additional observations from a re-analysis of the deposited data

How the results depend on the processing

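The difference between the fusions in the share of non-coding transcripts stayed negative and short of the threshold under the alternatives run, from -0.788 points among transcripts with a site to -2.18 without processed_transcript and polymorphic_pseudogene (also run: genes as the unit, without SPPL2B); leaving out non-coding rows of genes with a protein-coding row removed none. The share without a site in the transcript body differed by -1.78 points with the gene as the unit (Fisher's exact p = 0.867), opposite in sign to 0.712, so it has no settled direction. Members with a listed partner went from 0 to 1 with GPATCH8-ADAR when either list counted and to 2 with neighbouring genes, and from 5 to 11 with neighbouring genes with ADAR-SUGP1, since more genes then count as partners. The alternatives with SPPL2B, neighbours, pseudogene parents and a count of each gene name once were chosen after seeing the data. No paired analysis was possible because each table holds 1 pooled value per fusion, and for the same reason no replicate could be left out. Depth per site is unknown and limits what could be listed.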
